A study of Mus musculus with 4 samples.

Results

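The genes described here encode 10 LIM-domain proteins of the FHL, CSRP and PDLIM families: Fhl1, Fhl2, Fhl3, Csrp1, Csrp2, Pdlim1, Pdlim2, Pdlim4, Pdlim5 and Pdlim7. They were chosen by name, and Fhl1 drew attention because it was seen to be lower in the knockdown-labelled libraries. All 10 had a row among the 18200 genes of the table, and all 10 were among the 8750 genes with a mean of at least 1 FPKM, the level needed for testing. FPKM are fragment numbers divided by gene length and by the depth of the library. Levels of different genes can be compared only as far as the lengths used, which are not stated, are right. Since the members were proposed with this contrast known, their differences are a description and no p-value is given for them. The fit to all genes gives the members' log2 differences and SEs, and the count of members past its threshold, set beside the share of all genes.

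A LIM domain is a zinc-binding fold that mainly serves to hold other proteins. FHL proteins consist of little else, and they move between the actin cytoskeleton and the nucleus, where they act as partners of transcription factors. CSRP proteins, also called cysteine- and glycine-rich proteins, bind alpha-actinin and bundle actin filaments. PDLIM proteins join a PDZ domain, which binds alpha-actinin, to LIM domains, and sit on stress fibres and, in striated muscle, on the Z disc.

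RNA from polysomes, which are messenger RNAs loaded with several ribosomes, of mouse ADSCs given as wild type was sequenced in 4 libraries. By their labels, 2 carried a scrambled control and 2 an shRNA against Ifit1, and batches 1 and 2 each hold the replicate of that number from both groups. The series title asks about Ifit1, translation and muscle differentiation. Total RNA was not among the libraries, so the amount of a messenger RNA and its loading with ribosomes cannot be told apart. Nothing states whether replicates were separate cultures, so p-values cover no more than the variation among these 4 libraries, and that may be technical.

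These libraries had features that touch every value below. Ifit1, the named target, went from 1.93 and 1.91 FPKM in the scrambled-labelled libraries to 13.9 and 14.8 in the knockdown-labelled ones, against the labels, so all directions are given by label only. As smallest whole numbers, Ddx3y, Eif2s3y, Kdm5d and Uty, 4 genes of the Y chromosome picked with their values known, had 3 and 1 fragments together in the scrambled-labelled libraries and 252 and 307 in the knockdown-labelled ones. These sums split by labelled group, so whatever goes with them cannot be told apart from the label in any difference below. Their part in the results was not tested. Recovered fragments summed to between 24449223 and 29826088 per library. Of the 11 mesenchymal stromal markers, 7 were tested and all 7 rose, as did 27.4% of all tested genes. The summed level was 43.9 to 44.5 FPKM against 100.5 to 101.4. Eng, one of those tested, was under 1 FPKM in both scrambled-labelled libraries and passed the filter only through the knockdown-labelled ones. Below the filter, Nt5e, a standard surface marker of such cells, stayed at or below 0.0347 FPKM in every library. Pdgfra had 0.0034 and 0.0083 FPKM in the scrambled-labelled libraries and 0.1212 and 0.1171 in the knockdown-labelled ones. Mean FPKM of Pdgfrb was 0.83 against 0.85, and of Alcam 0.161 against 0.115. The endothelial markers with a row summed to at most 0.0191 FPKM. Skeletal muscle markers summed to between 1.64 and 2.49 FPKM, and Myod1, Myog and Pax7 matched no row. Of 5 tested epithelial and mesothelial markers 3 rose and 1, the abundant Krt19, fell, beside 27.4% and 41.2% of all tested genes. Their summed level was 165 to 169 against 102 to 103 FPKM. The 3 that rose, Krt7, Krt8 and Krt18, were under 1 FPKM in both scrambled-labelled libraries. They passed the filter only through the knockdown-labelled ones, so nothing is read from this count. The summed level of adipocyte markers was 8.24 to 8.26 against 7.36 to 7.40 FPKM (1 of 3 tested rose, 2 fell), of cardiac markers 1.64 to 1.74 against 3.49 to 3.53 (1 tested, which rose) and of leukocyte markers 5.49 to 5.56 against 6.19 to 6.39 (1 tested, which rose). The part of these markers in the results was not tested.

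The replicates did not all pair by label. Across the 8750 tested genes the difference between replicates 1 and 2 in one group ran opposite to that in the other (Pearson's r = -0.83, a description across genes, which are not replicates and share the 4 libraries). For 1711 genes (19.6%) the mean of scrambled 2 and knockdown 1 differed from that of scrambled 1 and knockdown 2 by over 0.2 on the log2(FPKM + 1) scale. Of these genes 1232 (72.0%) had a difference between the labelled groups under 0.05, against 466 of the other 7039 (6.62%). Both limits were set after the pattern was seen. Whether the libraries were crossed or the columns hold mixed values for such genes could not be settled from the table, so their group means may not stand for the labelled groups. Of the 10 members only Fhl3 was past the first limit, and Gapdh was past it too. In the other 9 members the replicates differed by at most 0.08 on that scale, in Fhl2.

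**Figure D1:**
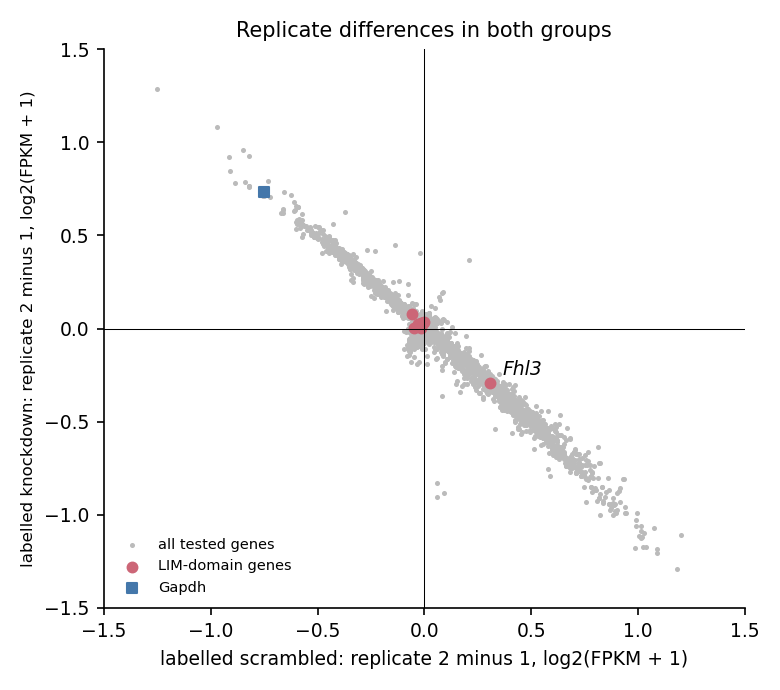
Each grey point is a tested gene, with the difference between replicates 2 and 1 of the scrambled-labelled libraries on the x axis and of the knockdown-labelled ones on the y axis, both in log2(FPKM + 1); 6 genes lie outside the axes at 1.5. Fhl3 (0.31 and -0.29) and Gapdh (-0.75 and 0.73) lie on the falling diagonal, and the other 9 LIM-domain genes lie near the origin.

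Promoter sequence of the members came from RefSeq (build GRCm38.p6), in windows from 250 bases before to 50 after each start site. The table matched 8 of the 10 members by symbol, with 12 windows, and Csrp2 and Pdlim2 were not matched. Windows were searched on both strands for the CArG box bound by SRF, a regulator of muscle and cytoskeletal genes, for GGAATG, bound by TEAD factors, and for TGANTCA of AP-1. The CArG box was in 3 of the 12 windows, 1 of Fhl1 and both of Fhl2, and in 1.63% of all 32851 windows. GGAATG and TGANTCA were in 0 of the 12, and in 14.7% and 7.81% of all windows. The stretches with a CArG box are shown because Fhl1 and Fhl2 share it while their values differed. Each runs 5′ to 3′ on the gene's strand, ends at the base before the start site, and has the CArG box in capitals.
Fhl1, chrX:56779553-56779682, plus strand, box from -102 to -93: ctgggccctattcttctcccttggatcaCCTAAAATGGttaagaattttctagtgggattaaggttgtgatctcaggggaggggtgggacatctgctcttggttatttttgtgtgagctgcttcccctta
Fhl2, chr1:43196762-43196891, minus strand, box from -96 to -87: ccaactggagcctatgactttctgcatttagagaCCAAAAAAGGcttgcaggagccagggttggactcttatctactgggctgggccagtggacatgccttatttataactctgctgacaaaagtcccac
Fhl2, chr1:43163962-43164091, minus strand, box from -31 to -22: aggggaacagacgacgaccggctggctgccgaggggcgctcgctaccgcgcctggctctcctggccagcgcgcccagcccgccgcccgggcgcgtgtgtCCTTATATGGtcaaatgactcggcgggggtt

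The 3 FHL genes showed 3 different patterns. Fhl1, a muscle-enriched member that also binds ion channels and is mutated in human myopathies, had 29.0 and 28.3 FPKM in the scrambled-labelled libraries and 8.06 and 8.20 in the knockdown-labelled ones. The groups were far apart and the replicates close. The means were 28.6 ± 0.457 and 8.13 ± 0.10 FPKM (SD, n = 2), so the level was 3.52-fold lower in the knockdown-labelled libraries. On the log2(FPKM + 1) scale the difference was -1.70 (SE 0.02), with -1.73 within batch 1 and -1.67 within batch 2. These are the values that chose the set. They rested on 3709 and 4404 fragments against 1264 and 1180, as smallest whole numbers. The counting error of the difference from these numbers was 0.03, above the fitted SE. The gene-level value does not separate the splice forms of Fhl1. In rank among the tested genes of the same library, Fhl1 stood at percentile 73.7 and 73.2 in the scrambled-labelled libraries and near the middle in the knockdown-labelled ones (50.8 in knockdown 2).

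Fhl2, a transcriptional cofactor of androgen receptor and beta-catenin that also binds integrins, had 63.0 and 60.4 FPKM in the scrambled-labelled libraries and 54.0 and 57.1 in the knockdown-labelled ones. The groups did not overlap, but the gap between them was close to the spread within them (means 61.7 ± 1.80 and 55.5 ± 2.19, SD, n = 2). The difference in log2(FPKM + 1) was -0.15 (SE 0.04). It was -0.33 once FPKM were scaled to a common total, and its sign turned with median-centring (0.02). The ratio of Fhl1 to Fhl2 FPKM was 0.460 and 0.469 in the scrambled-labelled libraries and 0.149 and 0.144 in the knockdown-labelled ones. Scaling a library by a single factor leaves such a ratio as it is, while quantile normalization can move it.

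Fhl3, which binds actin and is known as a regulator of myoblast genes, had 45.2 and 56.1 FPKM in the scrambled-labelled libraries and 54.9 and 44.7 in the knockdown-labelled ones. The libraries scrambled 1 and knockdown 2 were low and nearly equal, and scrambled 2 and knockdown 1 were high and nearly equal. The groups overlapped, with means of 50.7 ± 7.73 and 49.8 ± 7.25 FPKM (SD, n = 2). The log2(FPKM + 1) difference was 0.28 within batch 1 and -0.32 within batch 2, and the group difference was -0.02 (SE 0.17). Its sign turned with median-centring (0.15) and quantile normalization (0.0024). The replicates differed by 0.31 in the scrambled-labelled libraries, where the counting error of that difference was 0.03. A larger replicate difference was found in 12.9% of tested genes in the scrambled-labelled libraries and in 13.7% in the knockdown-labelled ones. Gapdh, a glycolytic enzyme often used as a reference gene, split the libraries in the same way with the opposite sign, at 275, 163, 161 and 268 FPKM in scrambled 1, scrambled 2, knockdown 1 and knockdown 2.

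**Figure D2:**
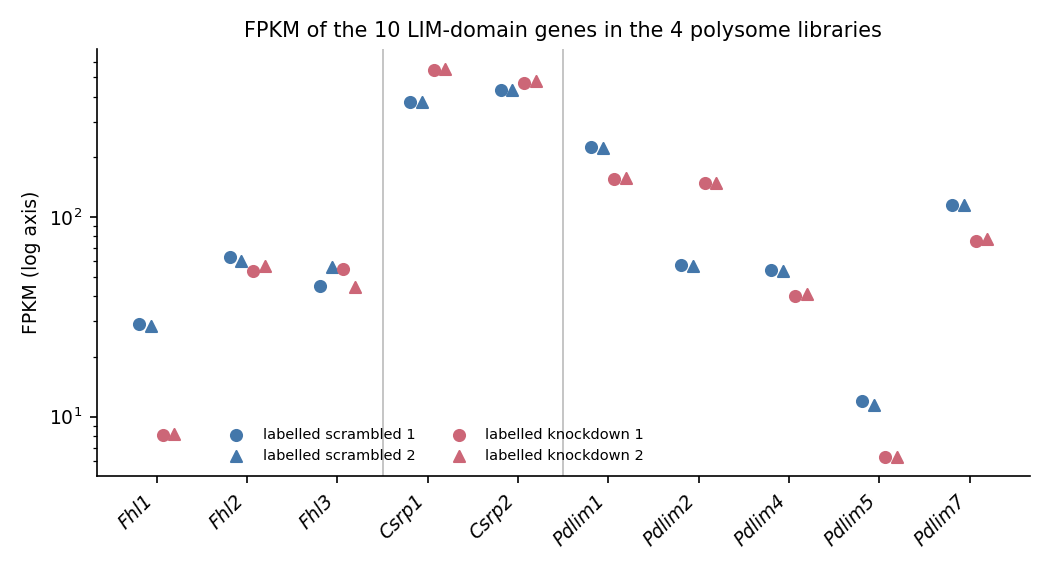
FPKM on a log axis of each LIM-domain gene, with 1 point per library: circles are replicate 1, triangles replicate 2, blue labelled scrambled and red labelled knockdown, and grey lines part the FHL, CSRP and PDLIM genes. Fhl1 and Pdlim2 have the widest gaps between colours, and Fhl3 is the member whose colours overlap.

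The CSRP genes were the most abundant members. Csrp1, found in smooth muscle and many other cells, had 378 and 376 FPKM in the scrambled-labelled libraries and 542 and 553 in the knockdown-labelled ones. Both libraries labelled knockdown were higher, with means of 377 ± 1.99 and 548 ± 7.45 FPKM (SD, n = 2), 1.45-fold. The log2(FPKM + 1) difference was 0.54 (SE 0.02), and from 0.34 to 0.71 over all settings. Csrp2, known from vascular smooth muscle and stellate cells, had 435 and 432 FPKM in the scrambled-labelled libraries and 468 and 478 in the knockdown-labelled ones. The groups did not overlap, and the means of 433 ± 1.78 and 473 ± 6.89 (SD, n = 2) were 1.09-fold apart. The log2(FPKM + 1) difference was 0.12 (SE 0.02), with 0.11 within batch 1 and 0.14 within batch 2. Its sign turned after quantile normalization (-0.10) and scaling to a common total (-0.06).

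The order of the CSRP genes by FPKM differed between the groups. Csrp2 was above Csrp1 in both libraries labelled scrambled, with a Csrp1 to Csrp2 ratio of 0.870 and 0.869. Csrp1 was above Csrp2 in both labelled knockdown, at 1.16 in each. Which gene is the higher depends on the gene lengths behind the FPKM, which are not stated. The shift of the ratio between the groups does not, if each gene had the same length in all libraries. Together the CSRP genes made up 57.6% and 57.3% of the summed FPKM of the 10 members in the scrambled-labelled libraries, and 65.1% and 65.6% in the knockdown-labelled ones.

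Among the PDLIM genes, Pdlim2 was higher and the other 4 were lower in the knockdown-labelled libraries. Pdlim2, also called Mystique, is an actin-associated protein and, in the nucleus, a ubiquitin ligase for NF-kappaB and STAT factors. It had 57.3 and 56.7 FPKM in the scrambled-labelled libraries and 147 and 148 in the knockdown-labelled ones, with means of 57.0 ± 0.442 and 147 ± 0.215 (SD, n = 2), 2.58-fold. The log2(FPKM + 1) difference was 1.35 (SE 0.02), with 1.35 within batch 1 and 1.36 within batch 2, from 3483 and 4184 against 10960 and 10076 fragments. No other member was higher by as much on that scale, and its range over all settings was 1.17 to 1.53.

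Pdlim5, known as ENH, which brings protein kinase C to the Z disc, had 11.9 and 11.5 FPKM in the scrambled-labelled libraries and 6.29 and 6.30 in the knockdown-labelled ones. Its level was 1.86-fold lower, a log2(FPKM + 1) difference of -0.80 (SE 0.02), and after Fhl1 this was the largest decrease among the members. Pdlim7, known as Enigma and tied to bone formation, had 114 FPKM in both libraries labelled scrambled and 75.6 and 77.4 in the knockdown-labelled ones, 1.49-fold lower (difference -0.57). Pdlim1, known as elfin or CLP36, had 223 and 221 FPKM against 154 and 157, 1.43-fold lower (difference -0.51). Pdlim4, known as RIL, had 54.0 and 53.7 FPKM against 40.4 and 41.3, 1.32-fold lower (difference -0.39). In each of these 4 genes both libraries labelled knockdown were below both labelled scrambled, and the gap was wider than the replicate differences, of at most 0.05 in log2(FPKM + 1). Their signs held under all 13 alternative settings. Settings that changed only the filter, the block or the error could not move the difference, so their sign was fixed in advance. The differences ranged from -0.97 to -0.63 for Pdlim5 and from -0.57 to -0.22 for Pdlim4.

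**Figure D3:**
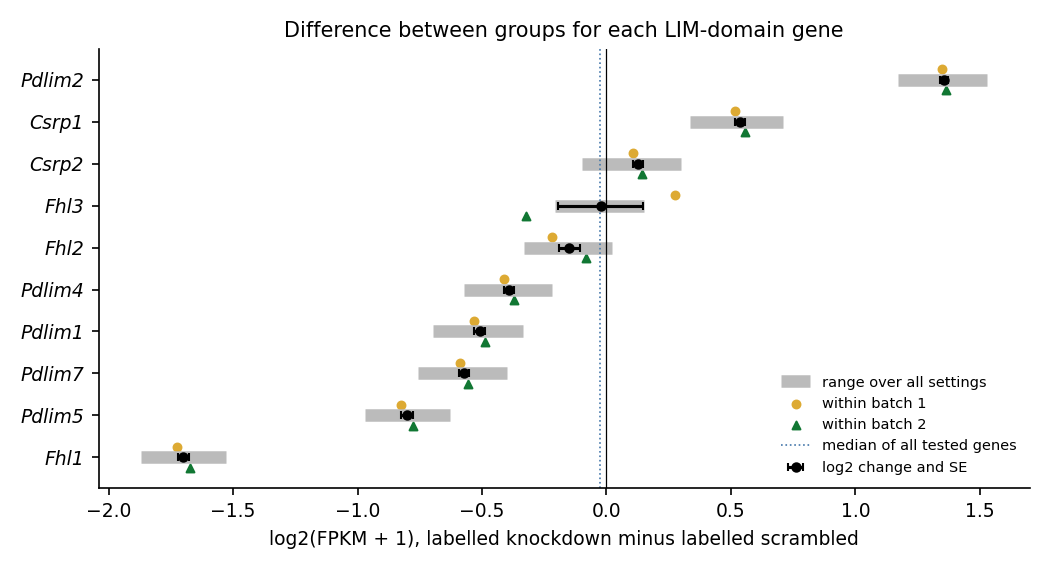
Difference in log2(FPKM + 1), labelled knockdown minus labelled scrambled, for each LIM-domain gene: black points with SE bars are the fit, coloured points the differences within each labelled batch, and grey bars the range over all settings. The range crosses 0 for Fhl2, Fhl3 and Csrp2 and stays on one side for the other 7, from Fhl1 (-1.70) to Pdlim2 (1.35).

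The opposite course of Pdlim2 changed the makeup of the PDLIM group more than its sum. The 5 PDLIM genes summed to 461 and 457 FPKM in the scrambled-labelled libraries and to 424 and 430 in the knockdown-labelled ones. The ratio of Pdlim2 to Pdlim1 was 0.256 in both libraries labelled scrambled and 0.954 and 0.938 in the knockdown-labelled ones, and that of Pdlim2 to Pdlim7 went from 0.501 and 0.496 to 1.95 and 1.91. In order of FPKM, Pdlim2 moved from below Fhl2 to above Pdlim7, while Pdlim1 stayed the leading PDLIM gene in all 4 libraries. The FHL genes summed to 137 and 145 FPKM against 117 and 110, and all 10 members to 1411 and 1410 against 1551 and 1570. As shares of all FPKM, the 10 members took 0.236% and 0.229% against 0.221% and 0.231%, which overlapped between the groups.

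Levels spanned from Csrp1 and Csrp2 at the top to Fhl1 and Pdlim5 at the bottom in all 4 libraries. In the scrambled-labelled libraries, Fhl3 (45.2 to 56.1 FPKM) could not be ordered against Pdlim4 (53.7 to 54.0), since their ranges overlapped. In the knockdown-labelled ones the ranges of Fhl2 (54.0 to 57.1) and Fhl3 (44.7 to 54.9) overlapped. Other neighbours in the order did not overlap. Of the 10 members, 8 were above the middle of the tested genes of every library by level, and the others were Fhl1 and Pdlim5, the latter at percentile 44.5 in knockdown 1.

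**Figure D4:**
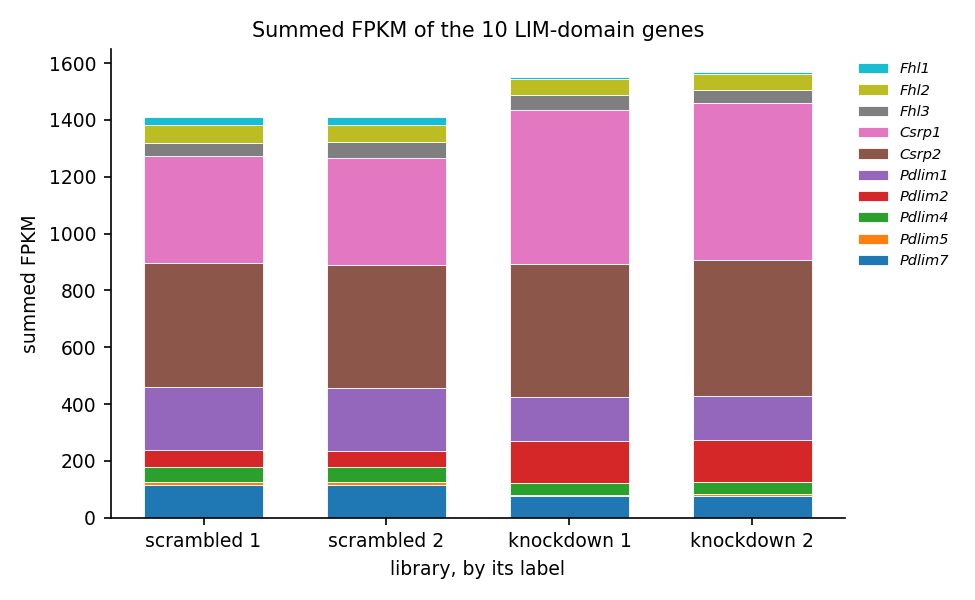
Summed FPKM of the 10 LIM-domain genes in each library, stacked by gene; bars start at 0. The sums are 1411 and 1410 in the scrambled-labelled libraries and 1551 and 1570 in the knockdown-labelled ones, where the Csrp1 and Pdlim2 segments are taller and the Pdlim1 and Pdlim7 segments shorter.

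Counted over the fit to all genes (limma, Benjamini-Hochberg adjusted p under 0.05), 8 of the 10 members were past the threshold, where 68.7% of tested genes were. Of these 3 were higher, Csrp1, Csrp2 and Pdlim2 (27.4% of tested genes), and 5 lower, Fhl1, Pdlim1, Pdlim4, Pdlim5 and Pdlim7 (41.2%). In 9 of the 10 the libraries of the groups did not overlap, against 74.5% of tested genes, with 3 above (30.1%) and 6 below (44.4%). The contrast is the one that chose the members, so these counts, which are near the background, are a description and nothing is read from them. Csrp2 left the count with the replicate block, after quantile normalization, with a common total and without the library scrambled 1, scrambled 2 or knockdown 2, and Fhl2 joined it with a common total and with a crossed replicate block (scrambled 1 with knockdown 2). The median log2 difference of the members was -0.27, beside -0.02 for all tested genes. Centring on the median moved the median of all genes by 0.17 and scaling to a common total by -0.18, so a member's difference is best read against it. The counting error in log2(FPKM + 1) was larger than the fitted SE for 4 of the 10 members, Fhl1, Pdlim2, Pdlim4 and Pdlim5, and for 59.1% of tested genes.

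Gene length moved with the differences over the whole table. Across 8456 tested genes with a GENCODE M21 exonic length, the log2 difference fell with length (Spearman's rho -0.39, a description across genes of the same 4 libraries). Members ran from 1683 bases (Fhl3) to 8877 (Pdlim5), with a median of 4135 over the tested genes. These need not be the lengths behind the FPKM, which are not stated. Fhl3, Fhl2, Csrp1 and Csrp2, with 1683, 1897, 1956 and 2171 bases, had differences of -0.02, -0.15, 0.54 and 0.12. Pdlim4, Fhl1 and Pdlim2, with 2560, 3714 and 4486 bases, had -0.39, -1.70 and 1.35. Pdlim7, Pdlim1 and Pdlim5, with 4849, 5260 and 8877 bases, had -0.57, -0.51 and -0.80. The part of length in the members' values was not tested.

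What the rule did not use was the annotation carried in the table. The Gene Ontology term for the Z disc was attached to 9 of the 10 members, all but Fhl1, and to 0.629% of tested genes. Stress fibre was attached to 6 members, Fhl3 and the 5 PDLIM genes, and to 0.606% of tested genes. Binding to muscle alpha-actinin was attached to the 5 PDLIM genes and to 6 tested genes in all. These terms follow the protein families and are not independent of the names. Both the higher Pdlim2 and the 4 lower PDLIM genes carried the same terms for filamentous actin, adherens junction and heart development.

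The other genes of these families were mostly below the filter. Crip1, a small LIM protein related to the CSRP genes, rose from 92.2 and 89.2 to 176 and 171 FPKM (limma log2 0.93, SE 0.03, adjusted p = 1.9e-04). Crip2, its relative, had 106 FPKM in each scrambled-labelled library and fell to 80.5 and 82.4 (log2 -0.37, limma adjusted p = 6.6e-04). Ldb3, the Z-disc protein ZASP and a relative of the PDLIM genes, had 0.604 and 0.560 FPKM in the scrambled-labelled libraries and 0.182 and 0.181 in the knockdown-labelled ones. Fhl4 was at 0.116 to 0.171 FPKM, and Pdlim3 had 1 fragment in scrambled 1 and was listed at 0 elsewhere. Fhl5, Csrp3 and Crip3 matched no row.

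Among other LIM proteins of actin fibres and adhesions, 33 were listed, 20 were tested, 13 fell, 4 rose and 3 did not pass. Of all tested genes 41.2% fell and 27.4% rose. The median log2 change was -0.34. With a common total 1 rose and 14 fell, where 1867 of all tested genes were higher and 4018 lower. Lima1, known as EPLIN, which stabilises actin filaments, fell from 22.1 and 21.4 to 10.1 and 10.2 FPKM, and Ajuba, an adhesion protein that restrains Hippo signalling, from 36.9 and 36.4 to 18.0 and 18.3. Tes, a focal adhesion protein that binds zyxin, fell 1.67-fold. Rsu1, which has no LIM domain but binds the LIM protein PINCH, fell 1.72-fold. These 4 were named because they had the smallest p of the list. Their limma adjusted p of 1.6e-04 or 1.7e-04 follow from that choice and say nothing of the list. Of 18 nuclear LIM proteins and their binding proteins, 3 were tested and all 3 fell, as did 41.2% of all tested genes. Lhx6, a homeobox factor, fell from 2.07 and 2.17 to 0.939 and 0.995 FPKM, and Ldb1, the adaptor of nuclear LIM proteins, fell by 0.32 on the log2 scale. Lmo4 fell by 0.31, and its adjusted p with limma was 0.054 after median-centring.

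Both alpha-actinin genes named here, whose proteins bind CSRP and PDLIM proteins, fell. Actn1 had 35.1 and 34.2 FPKM in the scrambled-labelled libraries and 11.6 and 11.7 in the knockdown-labelled ones, 2.98-fold lower (limma log2 -1.49, adjusted p = 1.6e-04). Actn4, named after its values were seen, fell from 32.3 and 31.4 to 18.3 and 18.4 FPKM (limma log2 -0.76, adjusted p = 1.9e-04). Of 48 listed genes of alpha-actinin, stress fibres and integrin adhesion, 38 were tested, 22 fell, 9 rose and 7 did not pass, with a median of -0.42. The shares of all tested genes were 41.2% fallen and 27.4% risen. Palld, the actin-bundling palladin, fell from 11.3 and 10.8 to 3.43 and 3.46 FPKM, and Tpm1, a tropomyosin, fell 2.24-fold. Actg2, an actin of gut smooth muscle, rose 3.05-fold. Actn1, Palld, Tpm1 and Actg2 were named for the smallest p of the list, so their p-values say nothing of the list. Actins and tropomyosins are close copies of each other, and the handling of reads they share is not stated. The smooth muscle markers as a set, all 9 with a row, summed to 2100 and 1932 FPKM against 1829 and 1999, which overlapped, and of 5 tested 1 rose and 0 fell. Myh11, their defining marker, was at or below 0.0038 FPKM. In bulk samples, fewer cells of a type and less RNA per cell cannot be told apart.

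Regulators and targets of SRF, MRTF and YAP-TEAD, which control many cytoskeletal genes, were also more often lower. Of 25 listed genes 22 were tested, 12 fell, 2 rose and 8 did not pass, with a median of -0.28. Yap1, the coactivator of TEAD factors, fell from 27.5 and 27.4 to 10.8 and 10.9 FPKM (limma log2 -1.26, SE 0.02, adjusted p = 1.6e-04). Amotl1 and Amotl2, which hold YAP in the cytoplasm, fell 2.35-fold and 2.02-fold. Tead2, a DNA-binding partner of YAP, rose from 85.6 and 84.1 to 180 and 179 FPKM. Yap1, Tead2, Amotl1 and Amotl2 were named for the smallest p of the list, so their p-values say nothing of the list. Over all tested genes 41.2% fell and 27.4% rose, and nothing is called particular to these lists. That balance moved with the scaling, from 2833 higher and 3040 lower genes after median-centring to 1867 higher and 4018 lower with a common total. In each of the 4 larger lists more genes fell than rose under the 3 other scalings too. The same held over all tested genes, so this does not set the lists apart.

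**Figure D5:**
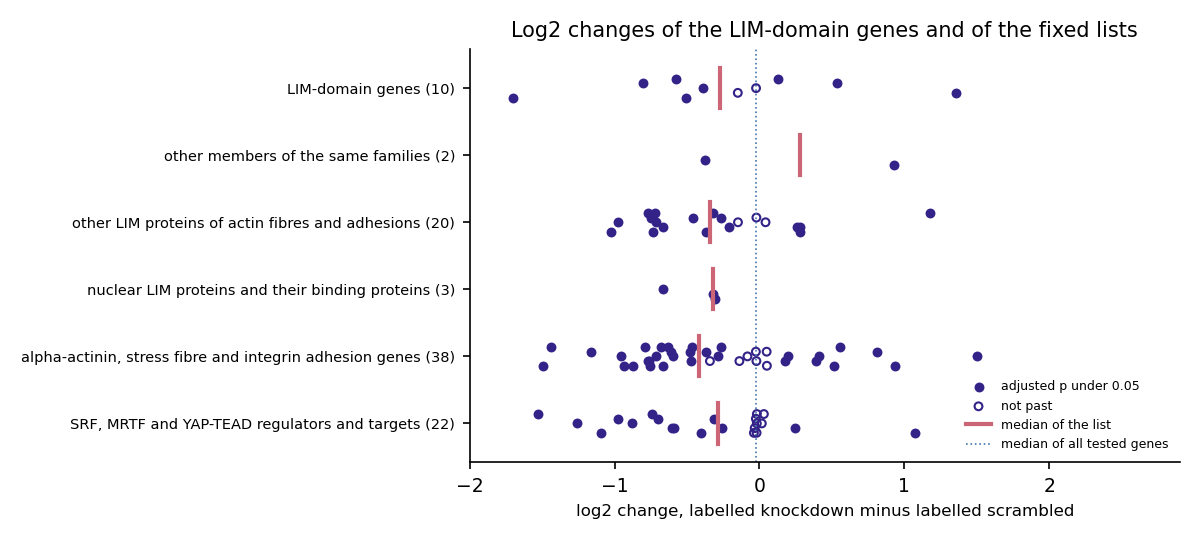
Log2 change (labelled knockdown minus labelled scrambled, log2(FPKM + 1)) of every tested gene of the 10 LIM-domain genes and of the 5 fixed lists, with the number tested in brackets; filled points were past the threshold, open points were not, and red lines are medians. The medians are -0.27 for the LIM-domain genes, -0.34 for other LIM proteins of actin fibres and -0.42 for alpha-actinin, stress fibre and integrin genes, beside -0.02 for all tested genes (dotted line).

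Predicted genes, Rik clones and pseudogenes were left out of a search for profiles like that of Fhl1. Of the remaining tested genes, the 4 closest over the 4 libraries were Gfm1, Cpne8, Fbxo32 and Dhrs3. Closeness was the largest gap between the log2(FPKM + 1) profiles, each centred on its gene's mean, and it was 0.02, 0.04, 0.04 and 0.05 for these genes. Gfm1, a mitochondrial elongation factor, was at 11.6 FPKM in both libraries labelled scrambled and at 2.81 and 2.85 in the knockdown-labelled ones. Fbxo32, known as atrogin and a ubiquitin ligase of muscle wasting, was at 4.77 and 4.71 against 0.676 and 0.697 FPKM. The likeness depends on the pseudocount: with 0.1 in place of 1 the log2 changes were -2.0 (Gfm1), -2.12 (Cpne8), -2.62 (Fbxo32) and -2.36 (Dhrs3), against -1.80 for Fhl1. In mean FPKM these 4 genes were 4.10-fold, 4.5-fold, 6.90-fold and 5.49-fold lower, against 3.52-fold for Fhl1.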

How the data were processed

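The authors deposited FPKM for 4 polysome libraries, named as FPKM per the labels. The submitters' processing notes name GRCm38, mm10 and GRCm39 without a role, and no aligner, counter, annotation or strandedness is given in the sources used here. Every one of the 4 value columns was used. Members, lists and tests were chosen with earlier results of these data known.

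Relative depths of 1.0, 1.2145, 1.2252 and 1.1241 (scrambled 1, scrambled 2, knockdown 1, knockdown 2) were found from the steps of low FPKM. Smallest whole fragment numbers, of which the true number can be a multiple, were then solved for up to 60000 (relative tolerance 3e-08), and 99.3% of the tested genes had a solution. Fragment numbers cover counting error only, because copies of 1 molecule made by PCR are counted apart.

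The 8750 genes averaging 1 FPKM or more were fitted as log2(FPKM + 1) in limma 3.58.1 (R 4.3.3; lmFit, eBayes with trend) over all 4 libraries without a block. P-values are two-sided, adjusted by Benjamini-Hochberg over these genes, threshold 0.05. Fold differences are ratios of mean FPKM. On the log2(FPKM + 1) scale, changes of low genes are understated. The replicate number is the labelled batch, so the labels pair the libraries; the replicate differences of the groups correlated at -0.83 across genes. Scripts were tested on simulated data.

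Named were all 10 members, Ifit1, Actb and Gapdh, the family list, the 4 smallest p of each other list and the 4 profiles nearest Fhl1, 37 genes; the few others are marked. Tables came from pandas 2.3.3 and numpy 2.4.6 in Python 3.11.15, figures from matplotlib 3.10.9.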

Additional observations from a re-analysis of the deposited data

How the results depend on the processing

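The members' counts, a description, stayed at 2 or 3 higher and 5 or 6 lower under all 13 alternatives. Fhl1, Csrp1, Pdlim1, Pdlim2, Pdlim4, Pdlim5 and Pdlim7 kept their sign and stayed in the count in each. Alternatives that changed only the filter, the block or the error could not turn a sign. Over all genes 2401 were higher and 3608 lower, against 3819 higher and 4679 lower without a filter and 1583 higher and 2213 lower at a mean FPKM of at least 5, where the number of genes tested differs. Scaling moved the balance, to 2833 higher and 3040 lower after median-centring, 2521 and 3364 after quantile normalization and 1867 and 4018 with a common total. Sign turned for Fhl2 (0.0235), Fhl3 (0.15) and Gapdh (0.14) with median-centring, for Fhl3 (0.0024) and Csrp2 (-0.10) with quantile normalization, and for Csrp2 (-0.0608) with a common total. Leaving out 1 library in turn gave from -0.177 to 0.13 for Fhl3 and from -0.405 to 0.347 for Gapdh; the cause was not tested. With the replicate block 2205 genes were higher and 3417 lower, and among the members only Csrp2 left the count. A crossed replicate block (scrambled 1 with knockdown 2), added after seeing the data, gave 2962 higher and 4282 lower. Libraries left alone in a group were assumed to vary like the other group. The smallest member count was 1180 fragments.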

Other observations

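Actb, a cytoplasmic actin often used as a reference gene, had 2838 and 2809 FPKM in the scrambled-labelled libraries and 1809 and 1842 in the knockdown-labelled ones, 1.55-fold lower (limma log2 -0.63, adjusted p = 2.0e-04). Among smooth muscle markers, Cnn1 (calponin) had 100.1, 85.0, 87.3 and 104.6 FPKM in scrambled 1, scrambled 2, knockdown 1 and knockdown 2, which splits the libraries as Gapdh does.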
